A study of Rattus norvegicus with 6 samples.

Results

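The amino acid genes of the ATF4 response described here are 10 genes, taken by their symbols from the 32900 features of the table counted with reads that align to several places included: Phgdh, Psat1, Psph, Asns, Gpt2, Slc7a11, Slc3a2, Slc7a5, Chac1 and Trib3. All 10 are listed, and 9 of them passed the filter for testing, at least 5 normalized counts on average. Total RNA was sequenced after rRNA depletion from clones of INS-1(832/13)::mCherry, a rat insulinoma β-cell line that carries a human insulin and a mouse Ins2-mCherry transgene, grown untreated in 7.5 mM glucose. The Control lines 5-9, 2 and 16 have lost the Prader-Willi syndrome (PWS) imprinted domain from the inactive maternal chromosome alone, whereas in the PWS lines 3, 19-1 and 19-4 it is gone from the paternal chromosome as well, so that the maternal deletion is common to all 6 lines. Each line is 1 clone and gave 1 library. Lines 2 and 16 were isolated after line 5-9 was transfected with an EGFP control vector, and the PWS lines after it received Cas9 and guide RNAs. A second round of editing was therefore confined to the PWS lines and cannot be told apart from the paternal deletion. Lines 19-1 and 19-4 are subclones of 1 clone, so the PWS group stands for 2 clones. As no treatment was given, the levels are those of cells without an added stressor, and in bulk RNA a lower level per cell cannot be told apart from fewer cells expressing a gene.

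ATF4 is a transcription factor made when kinases that sense amino acid shortage, unfolded protein in the endoplasmic reticulum (ER) or other stresses phosphorylate the translation factor eIF2α. General translation then slows while the Atf4 mRNA is translated more, and ATF4 binds composite C/EBP-ATF elements in genes of amino acid synthesis and import, tRNA charging and stress adaptation. In β-cells, whose ER makes large amounts of proinsulin, the ER kinase PERK is a main entry to this response. The study followed the 3 ER stress sensors, PERK among them, in these lines with and without an ER stressor. From RNA-seq it reported no effect on the transcripts of Atf4 and Ddit3 (CHOP) in unstressed PWS lines. The comparison here asks at what level the amino acid genes of the ATF4 response stood without an inducer.

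To show what such an element looks like in these genes, the stretch from 250 bases before to 50 after the start site was searched on both strands for the letters TGATGNAA, which cover the core of the composite element, in RefSeq promoters of assembly GRCr8. All 10 genes had a promoter in that table, Slc3a2 with 2 start sites, and 2 genes held a match, Chac1 and Trib3, against 3.98% of the 33469 promoters in the table. The match began at position -167 relative to the start site in Chac1 (chr3:126795953-126795982, plus strand) and at -21 in Trib3 (chr3:161275536-161275565, minus strand). Among the other genes of the response described further on, a match was held by 7 of the 11 aminoacyl-tRNA synthetases with a promoter in the table, 3 of 6 synthesis enzymes, 2 of 4 transporters, 2 of 13 regulators and 1 of 7 stress targets. Nupr1 among these regulators and Fgf21, the stress target, held a match but were not tested for a difference. Of the markers of other cell types, chosen with no regard to ATF4, 2 of 8 held a match, and of the β-cell markers 0 of 8. The sites of Pycr1 (chr10:106420925-106420954, minus strand) and Iars1 (chr17:15193658-15193687, minus strand) are shown because the levels of both genes did not overlap between the groups. No match was found for the other genes of the response without overlap (Asns, Gpt2, Slc7a11, Eif2ak1, Eif2ak4, Gdf15 and Atf5). All other tested genes of the response with a match overlapped between the groups, and a relation of match to level was not tested. The coordinates are those of the 30 bases printed around each match, and the strand given is that of the gene. Each sequence is written on the strand of its gene with the 8 matching letters in capitals, and TTGCATCA and TTACATCA are matches read on the opposite strand.
Chac1: cttctccgccgTTGCATCActcctgctagg
Trib3: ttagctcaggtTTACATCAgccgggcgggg
Pycr1: ggtcctgtgtaTGATGCAAtgtacaaggct
Iars1: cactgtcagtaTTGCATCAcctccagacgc
Chac1, Pycr1 and Iars1 shared the form TGATGCAA, and Trib3 had TGATGTAA. The absence of a match in the other genes says that these letters are not within this window.

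The libraries held between 26016478 and 36084261 counted reads per line. Snurf, within the deleted domain, had 3160 to 3992 normalized counts (reads divided by the library's size factor) in Control lines and 0 to 3.64 in PWS lines, where 6 reads remained, so the labels of all 6 lines matched this gene. All 12 β-cell markers examined were expressed above the filter, and of 10 markers of other pancreatic, stromal and blood cells only Gcg passed it, with 100.01 normalized counts in PWS line 19-4 and 0 to 19.0 in the other lines, while Sst, Prss1, Amy2a3 and Ptprc had no read. The β-cell genes Ins1 (log2 fold change -0.57, limma adjusted p = 0.389) and Iapp (-0.64, limma adjusted p = 0.364) were lower in each PWS line than in the Control lines, and lowest in line 19-4, and their part in the results below was not tested. Unless another test is named, comparisons below are PWS minus Control by limma on log2(normalized count + 1) over 15579 genes, with Benjamini-Hochberg adjusted p-values over all of them. Because each line gave 1 library, these p-values rest on the spread between lines, which limma draws toward a trend over all genes tested. Lines 19-1 and 19-4 enter as separate samples unless averaged. A single value compared exactly between 3 and 3 lines cannot fall below p = 0.1.

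None of the 9 amino acid genes tested passed the limma threshold, an adjusted p-value of 0.05, which 0.257% of all tested genes did. None passed with edgeR or DESeq2 on the recovered reads either, where 0.205% and 1.46% of all genes did, and by direction limma called 0.00642% of all genes higher and 0.25% lower, whereas DESeq2 called 228 genes, 106 of them higher. All PWS lines exceeded all Control lines for Asns and Gpt2 and were below them for Slc7a11, so that groups did not overlap for 3 of the 9 genes, against 17.4% of all tested genes (8.43% higher and 9.01% lower). The same 3 genes were those with an unadjusted p-value under 0.05 in limma, which 11.3% of all genes had (6% higher and 5.35% lower, and 11.4% in edgeR and 10.4% in DESeq2), and their unadjusted p-values ranged from 0.00333 to 0.0189 with edgeR and DESeq2. On average 7 of the 9 genes were higher in PWS lines, where 49.3% of all tested genes were, and their median log2 fold change was 0.19 beside -0.0028 over all tested genes. That median was 0.10 without PWS line 19-4 and 0.13 without Control line 16 or PWS line 3. With all 6 lines in the fit, the difference between groups was within 0.40 on the log2 scale for every one of the 9.

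**Figure D1:**
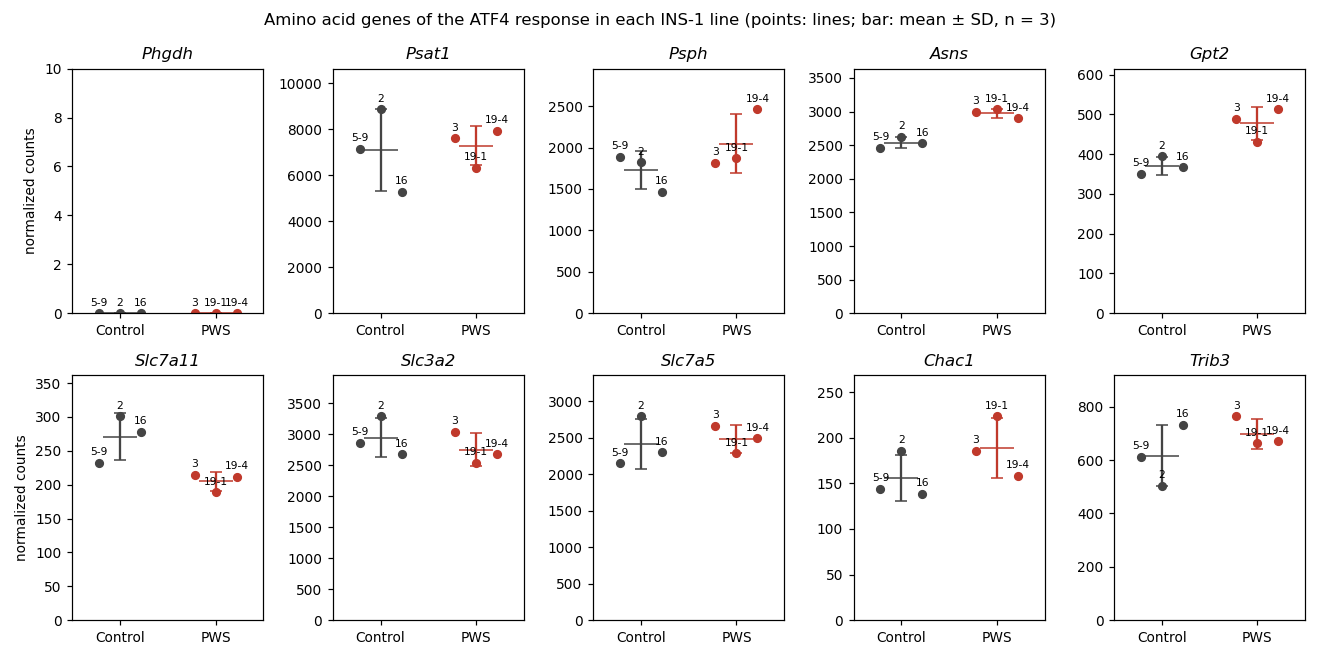
Normalized counts (vertical axis, from 0) of the 10 genes in the 3 Control (grey) and 3 PWS (red) lines, each point a line and each bar the mean ± SD. The groups do not overlap for Asns, Gpt2 and Slc7a11, and Phgdh is at 0 in all 6 lines.

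Serine is made from a glycolytic intermediate in 3 steps, by phosphoglycerate dehydrogenase (Phgdh), phosphoserine aminotransferase (Psat1) and phosphoserine phosphatase (Psph). Phgdh (ENSRNOG00000019328), the first and committed step, was without a single read in the 6 lines, under both ways of counting reads and in the RSEM table. With no read counted, up to 3 reads per library are allowed, equal to 2.73 to 3.59 normalized counts across lines, a limit that covers counting error alone. Eif4ebp1 and Stc2, described further on, were also at exactly 0, and whether such a 0 reflects the level of the transcript was not tested. No difference between the groups was therefore detectable for this gene. The other steps were well covered, with 43829 reads of Psat1 and 11449 reads of Psph over the 6 lines.

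Psat1 (ENSRNOG00000013971) had 7162, 8872 and 5285 normalized counts in the Control lines (5-9, 2 and 16), and 7611, 6315 and 7945 in PWS lines 3, 19-1 and 19-4. The Control lines enclosed all 3 PWS lines, with line 2 the highest and line 16 the lowest of the 6. Its log2 fold change was 0.06 ± 0.18 (SE, limma adjusted p = 0.929), with a 95% interval of the fold from 0.789 to 1.38. Leaving out Control line 16 gave -0.14 and leaving out Control line 2 gave 0.24, so the sign rested on single lines. Psph (ENSRNOG00000000925) had 1888, 1824 and 1464 normalized counts in the Control lines (5-9, 2 and 16), and 1814, 1871 and 2461 in PWS lines 3, 19-1 and 19-4. Line 19-4 stood above the rest, Control line 16 below the rest, and the other 4 lines lay close together. The log2 fold change of 0.24 ± 0.14 (SE, limma adjusted p = 0.551) was 0.10 without line 19-4 and 0.13 without Control line 16. Line 19-4 is also the line with the most Gcg and the least Ins1 and Iapp. Within a line, Psph had 206 to 277 normalized counts per 1000 of Psat1 in Control lines and 238 to 310 in PWS lines, which overlapped (exact permutation test, two-sided, p = 0.4).

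Asparagine synthetase (Asns) transfers an amide nitrogen from glutamine to aspartate, and glutamic-pyruvic transaminase 2 (Gpt2), a mitochondrial enzyme, exchanges amino groups between alanine and glutamate. Asns (ENSRNOG00000007546) had 2458, 2628 and 2527 normalized counts in the Control lines (5-9, 2 and 16), and 2991, 3032 and 2899 in PWS lines 3, 19-1 and 19-4. Both groups were tight, with coefficients of variation of 3.37% in Control and 2.29% in PWS lines, where the reads alone give 1.95% and 1.86%, and the gap between them was wider than the range of either group. The PWS lines were 1.17-fold higher (95% interval 1.06 to 1.29), a log2 fold change of 0.23 ± 0.06 (SE, unadjusted p = 0.00571 and limma adjusted p = 0.283). Across the alternatives it stayed between 0.21 and 0.25, and its lowest adjusted p-value was 0.121, in DESeq2.

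Gpt2 (ENSRNOG00000059579) had 351, 395 and 367 normalized counts in the Control lines (5-9, 2 and 16), and 489, 430 and 513 in PWS lines 3, 19-1 and 19-4. The nearest lines of the 2 groups, Control 2 and PWS 19-1, differed by less than the full range of the PWS lines. PWS lines 3 and 19-4 lay closer together than that. The gene was 1.28-fold higher in PWS lines (95% interval 1.09 to 1.51), a log2 fold change of 0.36 ± 0.10 (SE, unadjusted p = 0.00779 and limma adjusted p = 0.293), the highest of the 9 genes. It was 0.31 to 0.43 with each line left out. With lines 19-1 and 19-4 averaged into 1 sample, the adjusted p-values of Asns and Gpt2 were both 0.525 in limma.

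**Figure D2:**
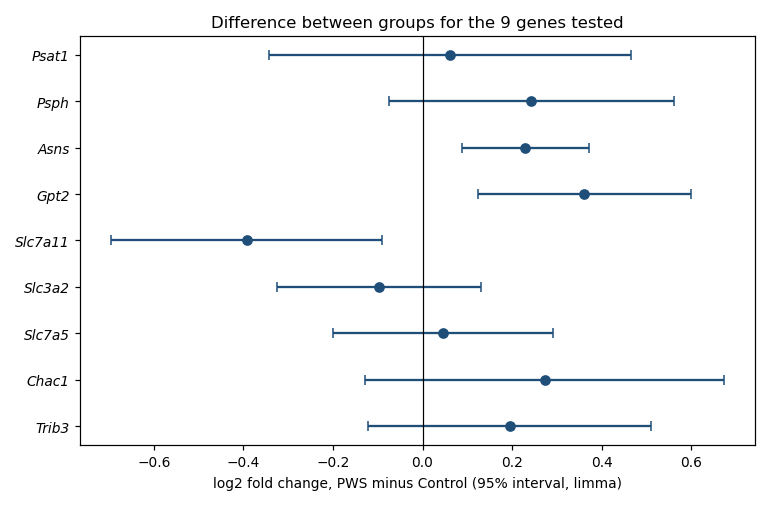
Log2 fold change, PWS minus Control (horizontal axis), of the 9 genes tested, each point the limma estimate over 3 and 3 lines and each bar its 95% interval. The intervals of Asns, Gpt2 and Slc7a11 leave out 0, and those of the other 6 genes include it.

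Slc7a11 and Slc7a5 (LAT1) are light chains that pair with the heavy chain Slc3a2 (4F2hc) at the plasma membrane. Slc7a11 with Slc3a2 forms system xc-, which imports cystine in exchange for glutamate and feeds glutathione synthesis, while Slc7a5 with Slc3a2 forms a system L transporter, which imports leucine and other large neutral amino acids. Slc7a11 (ENSRNOG00000010210) had 233, 301 and 278 normalized counts in the Control lines (5-9, 2 and 16), and 214, 189 and 212 in PWS lines 3, 19-1 and 19-4. The groups did not overlap, but Control line 5-9, the line from which the others came, was nearer to PWS line 3 than to either other Control line. The PWS lines had 0.762 of the Control level (95% interval 0.617 to 0.939), a log2 fold change of -0.39 ± 0.13 (SE, unadjusted p = 0.0170 and limma adjusted p = 0.343). With each line left out the log2 fold change ran from -0.50 (without Control line 5-9) to -0.31 (without Control line 2). The unadjusted limma p-value was 0.0551 without Control line 2, 0.0515 without Control line 16 and 0.0563 without PWS line 19-1, and between 0.00781 and 0.0296 without each of the others. It was the least covered of these 3 genes, with 1445 reads over the 6 lines and a counting error of 5.96% in Control and 7.07% in PWS lines.

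The heavy chain Slc3a2 (ENSRNOG00000018487) had 2867, 3294 and 2681 normalized counts in the Control lines (5-9, 2 and 16), and 3045, 2537 and 2678 in PWS lines 3, 19-1 and 19-4. The groups overlapped, with a log2 fold change of -0.10 ± 0.10 (SE, limma adjusted p = 0.759) and a 95% interval of the fold from 0.798 to 1.10. That value was -0.01 without Control line 2, -0.04 without PWS line 19-1, -0.16 without Control line 16 and -0.17 without PWS line 3. Slc7a5 (ENSRNOG00000018824) had 2151, 2794 and 2300 normalized counts in the same Control lines, and 2666, 2285 and 2493 in the PWS lines. Here too Control line 2 was the highest of the 6 and the groups overlapped. Its log2 fold change was 0.05 ± 0.11 (SE, limma adjusted p = 0.915), -0.03 without Control line 5-9 and -0.0078 without PWS line 3.

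A ratio taken within a line does not depend on the scaling between libraries, and 5 such ratios were computed with the values of the genes known. Slc7a11 had 81.1, 91.4 and 103.8 normalized counts per 1000 of Slc3a2 in Control lines 5-9, 2 and 16, and 70.4, 74.5 and 79.1 in PWS lines 3, 19-1 and 19-4. Slc7a5 per 1000 of Slc3a2 was 750.0, 848 and 858 in Control lines and 875, 901 and 931 in PWS lines. The lower ratio of Slc7a11 and the higher ratio of Slc7a5 to Slc3a2 in PWS lines separated the groups in opposite directions, each with an exact two-sided permutation p = 0.1, the smallest that 3 and 3 lines allow, and 0.167 when adjusted over the 5 ratios. Because read numbers also depend on transcript length, such ratios compare lines, not the amounts of the partners.

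Chac1 degrades glutathione in the cytosol, and Trib3 is a pseudokinase that binds ATF4 and restrains it. Both are classic targets of ATF4 together with CHOP, the factor encoded by Ddit3. Chac1 (ENSRNOG00000014387) had 144, 185 and 139 normalized counts in the Control lines (5-9, 2 and 16), and 186, 224 and 158 in PWS lines 3, 19-1 and 19-4. Control line 2 lay level with PWS line 3 and above line 19-4, so the groups overlapped. The log2 fold change was 0.27 ± 0.17 (SE, limma adjusted p = 0.596), with a 95% interval of the fold from 0.915 to 1.60. It ran from 0.15 without PWS line 19-1 to 0.40 without Control line 2. Its 1032 reads gave a counting error of 7.43% to 7.83%, beside a spread between lines of 16.3% in Control and 17.4% in PWS lines.

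Trib3 (ENSRNOG00000007319) had 613, 505 and 733 normalized counts in the Control lines (5-9, 2 and 16), and 765, 664 and 671 in PWS lines 3, 19-1 and 19-4. Unlike the transporters, it was lowest of the 6 in Control line 2. The log2 fold change of 0.19 ± 0.14 (SE, limma adjusted p = 0.637) was 0.06 without that line, 0.13 without PWS line 3, and 0.33 (unadjusted p = 0.0314) without Control line 16. Per 1000 normalized counts of Ddit3 in the same line, Trib3 had 945 to 1102 in Control lines and 1216 to 1285 in PWS lines, which did not overlap (exact permutation test, two-sided, p = 0.1, and 0.167 adjusted over the 5 ratios). For Chac1 the same ratio overlapped, from 202 to 347 in Control lines and from 287 to 433 in PWS lines (exact permutation test, p = 0.4).

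**Figure D3:**
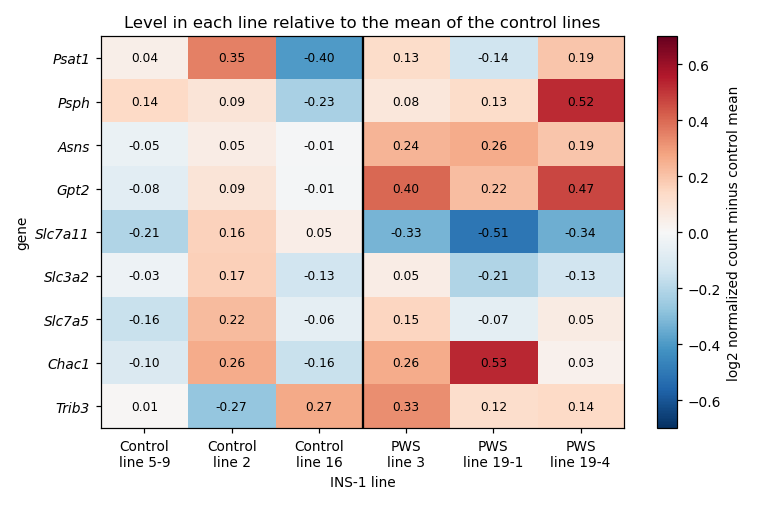
Log2 normalized count of each of the 9 genes (rows) in each line (columns) minus the mean of the Control lines, by colour and number. Slc7a11 is below 0 and Asns, Gpt2, Psph, Chac1 and Trib3 are above 0 in all 3 PWS lines, and Control line 2 is above 0 for every gene but Trib3.

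Between the lines, the 9 genes did not form one pattern. Control line 2 held the highest value of the 6 lines for 4 genes (Psat1, Slc7a11, Slc3a2 and Slc7a5) and the lowest for Trib3. It was above the mean of the Control lines for 8 of the 9 genes, as was PWS line 3, against 7 genes in PWS line 19-4, 5 in PWS line 19-1, 3 in Control line 5-9 and 2 in Control line 16. The median over the 9 genes relative to that mean was 0.16 in Control line 2, -0.05 in line 5-9 and -0.06 in line 16, and 0.15, 0.12 and 0.14 in PWS lines 3, 19-1 and 19-4. By this median the PWS lines lay between Control line 2 and the other Control lines. The ratio of the highest to the lowest line ran from 1.23 for Asns to 1.68 for Psph and Psat1.

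Over the 6 lines, 23 of the 36 pairs of genes had a positive Pearson correlation of log2 normalized counts and 13 a negative one, with a median of 0.22. The pairs share their 6 libraries and the difference between groups, so these values describe the lines alone. Asns and Gpt2 had the highest correlation (0.86), and Asns and Slc7a11 the lowest (-0.73). The partners Slc3a2 and Slc7a5 had 0.72, and the consecutive enzymes Psat1 and Psph 0.63. Trib3 was negatively correlated with 6 of the 8 others, the exceptions being Asns (0.37) and Gpt2 (0.36). Outside the lists used here, the genes closest to the mean pattern of the 9 over the 6 lines were Ciart (0.993), Zc3h18 (0.990), Adam1a (0.989), Armc7 (0.980) and Mapk14 (0.975). Of the 15579 tested genes, 13 had a correlation above 0.95. The 9 genes themselves had correlations to this mean from -0.18 (Slc7a11) to 0.85 (Slc7a5). As the genes outside the lists were picked by this value over 6 lines, they describe the pattern alone.

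Upstream of the 10 genes, Atf4 itself (ENSRNOG00000017801) had 6037, 6899 and 5531 normalized counts in the Control lines (5-9, 2 and 16), and 6174, 6028 and 5981 in PWS lines 3, 19-1 and 19-4. The PWS lines lay inside the range of the Control lines, with a log2 fold change of -0.02 ± 0.09 (SE, limma adjusted p = 0.962). As ATF4 is set largely by translation, its mRNA does not give the level of the protein. Ddit3 had 556, 534 and 687 normalized counts in the Control lines and 613, 517 and 552 in the PWS lines, a log2 fold change of -0.08 ± 0.12 (SE, limma adjusted p = 0.858). Of 14 regulators (the eIF2α kinases Eif2ak1 to Eif2ak4, Eif2s1, both eIF2α phosphatase subunits, and the transcription factors of the pathway), 13 were tested and none passed the limma threshold. Their median log2 fold change was 0.0069, from Atf5, a factor translated in the same way as Atf4 (-0.22, SE 0.11, limma adjusted p = 0.483), to Eif2ak1, the heme-regulated kinase HRI (0.19, SE 0.09, limma adjusted p = 0.449). Without Control line 2 the value of Atf5 was -0.11, and without PWS line 19-4 that of Eif2ak1 was 0.11. For these genes every PWS line lay beyond every Control line, as it did for Eif2ak4, the amino acid sensor GCN2 (log2 fold change 0.08).

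The other targets were taken in 4 lists. Of the 8 further enzymes of amino acid synthesis and one-carbon metabolism, 6 had a higher mean in PWS lines, and the median of their log2 fold changes was 0.0066 (0.063 without PWS line 19-1 and -0.0087 without PWS line 19-4). Values ran from Pck2 (-0.10, and -0.0072 without PWS line 19-4) to Pycr1, the last enzyme of proline synthesis, which had normalized counts of 63.6, 65.2 and 63.7 in Control lines and 94.9, 92.1 and 73.6 in PWS lines (log2 fold change 0.42, standard error 0.17, unadjusted p = 0.0347 and limma adjusted p = 0.415). Aldh18a1, which acts earlier in proline synthesis, had a log2 fold change of 0.0041, but 0.00193% of its counts came from uniquely assigned reads. Of the 6 further transporters, 5 were tested, with a median of 0.09 (0.40 without Control line 2 and 0.032 without Control line 5-9), from Slc1a4 (-0.05) to Slc1a5 (0.49, SE 0.27, limma adjusted p = 0.538), which had only 125 reads over the 6 lines. Slc7a1, the arginine and lysine importer CAT1, had 3226 to 5011 normalized counts in Control lines and 4458 to 6642 in PWS lines (log2 fold change 0.39, SE 0.19, limma adjusted p = 0.497), and its log2 fold change ran from 0.20 to 0.56 with each line left out.

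The 12 aminoacyl-tRNA synthetases, which charge tRNAs with their amino acids, had log2 fold changes from -0.07 for Yars to 0.16 for Iars, with a median of 0.04. Iars (Iars1 in RefSeq) had 5599, 5587 and 5073 normalized counts in the Control lines (5-9, 2 and 16), and 6154, 5968 and 6047 in PWS lines (standard error 0.07, unadjusted p = 0.0393 and limma adjusted p = 0.423), and 62.5% of its counts came from uniquely assigned reads. Of 8 further stress targets, 5 were tested, with a median of -0.05. They ran from Ddit4, an inhibitor of mTORC1 signalling (-0.25, SE 0.12, limma adjusted p = 0.467), to Gdf15, a secreted stress hormone, which had normalized counts of 235, 140 and 249.6 in Control lines and 295, 271 and 294 in PWS lines (0.51, standard error 0.21, unadjusted p = 0.0420 and limma adjusted p = 0.428). Gdf15 was 0.24 on the log2 scale without Control line 2. Stc2 and Eif4ebp1 had no read in any of the 6 lines.

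Over these 5 lists together, 43 of 48 genes were tested and 26 had a higher mean in PWS lines, and the median of their log2 fold changes was 0.02. None passed an adjusted p-value of 0.05 with limma, edgeR or DESeq2, and Pycr1, Iars and Gdf15 had an unadjusted p-value under 0.05 in limma, 3 of 43 where 11.3% of all tested genes did. The groups did not overlap for 6 of the 43, Eif2ak1, Eif2ak4, Pycr1, Iars and Gdf15 higher and Atf5 lower, where 17.4% of all tested genes had this.

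**Figure D4:**
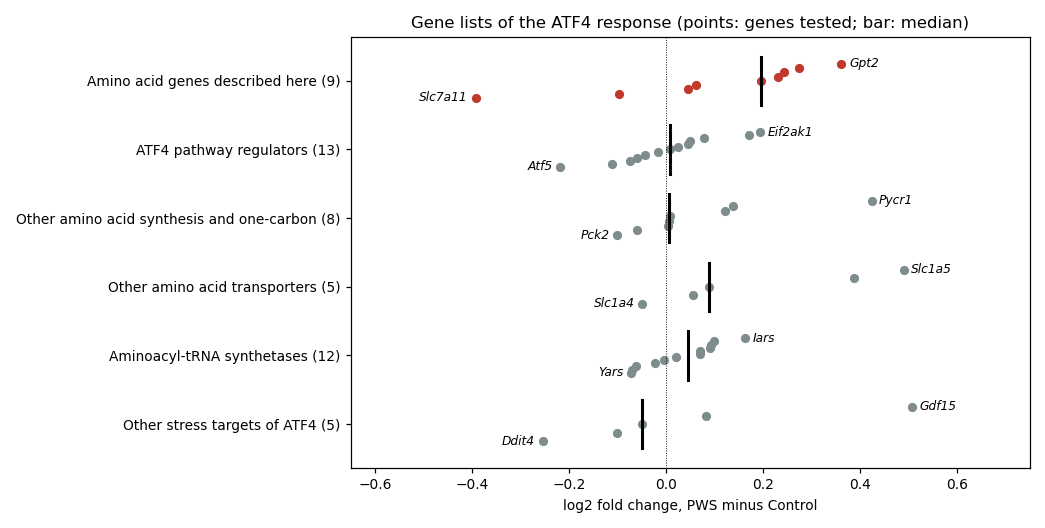
Log2 fold change, PWS minus Control (horizontal axis), of each tested gene in the 6 lists (number tested in brackets), with the amino acid genes in red, the other lists in grey and a black bar at each median. The medians run from -0.05 for the stress targets to 0.19 for the amino acid genes, and every value lies between -0.39 and 0.51.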

How the data were processed

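The authors trimmed the reads of stranded libraries with cutadapt, aligned them with STAR 2.7.0e to the Ensembl rat genome with the transgenes and custom features added, and counted them with HTSeq 0.11.2 (nonunique all or nonunique none) or RSEM 1.3.1, with versions from the submitters' processing notes. The strand setting of the counting is not given in the sources used here. The values the authors deposited are a signal, that is, read counts scaled by the size factors of DESeq2. The authors' fold changes and p-values in the same tables were not used. Dividing by the smallest value of a column gave back whole reads, within 0.01 reads, for 100% of nonzero HTSeq values and 1.78% of RSEM values. Values printed come from nonunique all counting unless named otherwise, and at least 98.8% of the reads of each amino acid gene with reads were unique to it.

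Groups were compared with limma 3.58.1 in R 4.3.3 (lmFit, eBayes with trend) on log2(normalized count + 1), which understates the fold changes of weakly expressed genes, where the mean reached 5, with an adjusted p-value threshold of 0.05. edgeR 4.0.16 (quasi-likelihood) and DESeq2 1.42.0 on the recovered reads were alternatives, as were other pseudocounts, filters, scaling and counting, each line left out, a replicate block, and the subclones averaged. The tests were checked on simulated data. The genes and lists were chosen with earlier results of these data known. Named are the 10 genes, Atf4, Ddit3, the ends of each list, and the 5 genes most alike in pattern. Others (Aldh18a1, Slc7a1, Eif2ak4, genes at 0) were named after their values were seen. Nupr1 had no row with its symbol. Coordinates are those of the RefSeq promoters, a later assembly than that of the files.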

Additional observations from a re-analysis of the deposited data

How the results depend on the processing

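None of the amino acid genes, nor of the 43 other tested genes of the response, passed its threshold under any alternative run, with an adjusted p-value of 0.1 included. Over all genes, the main test gave 40 genes past the threshold, against 228 with DESeq2, 9 with a mean of at least 50, 16 with nonunique none counting and 12 with RSEM. With each line left out in turn, the median log2 fold change ran from 0.10 to 0.24 for the amino acid genes, from 0.032 to 0.40 for the other transporters and from -0.0087 to 0.063 for the other synthesis enzymes, from -0.037 to 0.040 for the regulators, from -0.089 to 0.035 for the stress targets and from 0.0056 to 0.064 for the synthetases. The highest transporter value came without Control line 2. In these fits the sign changed for 2 of the 9 amino acid genes and 23 of the 43 others, among them Slc7a5 (-0.034 without Control line 5-9 and -0.0078 without PWS line 3), Psat1 (-0.14 without Control line 16 and -0.0038 without PWS line 19-4), Atf4 (0.069), Slc1a4 (0.17) and Yars (0.13) without Control line 2, and Ddit3 (0.036) without Control line 16. Their ranges were -0.034 to 0.16 for Slc7a5, -0.14 to 0.24 for Psat1, -0.091 to 0.069 for Atf4, -0.16 to 0.17 for Slc1a4, -0.21 to 0.13 for Yars and -0.15 to 0.036 for Ddit3. Of the amino acid genes, 2 or 3 had an unadjusted p-value under 0.05 and 3 or 4 did not overlap with a line left out, where 7.93% to 11.7% and 25.4% to 30.6% of all genes did, alternatives added after seeing the data. Same-numbered lines of the groups did not deviate together (correlations of 0.0035 to 0.05), and the replicate block gave 36 genes over all and none of the amino acid genes. Among the 9 amino acid genes, counting error was highest for Chac1, at 7.43% to 7.83%, below its spread between lines.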

Other observations

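Of the genes in the 6 lists of the ATF4 response, 3 had no read in any line, Phgdh, Stc2 and Eif4ebp1, as had 11650 of the 32900 features. Why these 3 genes are at 0 was not tested.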
